A study of Homo sapiens with 4 samples.

Results

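The adrenomedullin receptor system was examined in H1-derived cells, as the 5 genes ADM, CALCRL, RAMP1, RAMP2 and RAMP3 among 58365 rows of the deposited table. The genes were found in the table by symbol, and each symbol had 1 row. H1 is a widely used established line of human embryonic stem cells (hESCs). All cells were H1 cells that had gone through stepwise hematopoietic differentiation, with 2 days of activin A (40 ng/ml) and BMP4 (50 ng/ml), 3 days of VEGF (40 ng/ml) and bFGF (50 ng/ml), and 3 further days of VEGF and bFGF at the same doses. The last 3 days were run with SB431542 in the SB group, and without it in the group titled DMSO. SB431542 is a small molecule that blocks the type I receptors for TGFβ and activin. RNA was sequenced at day 8 in 2 libraries per group. The study states that CD31+ cells were collected, a sort that the sample labels do not name. The labels do not say whether the 2 libraries of a group came from separate cultures, and the study's general statement on repeats gives a number of experiments other than the number of libraries here, so the p-values below measure only the spread between these libraries.

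Adrenomedullin, the product of ADM, is a secreted peptide that widens blood vessels and is needed for the formation of blood and lymphatic vessels. Its receptor is built from 2 kinds of subunit. CALCRL is a G protein-coupled receptor that reaches the cell surface as a complex with a RAMP, a small protein with a single membrane span. The RAMP sets which ligand is preferred: CALCRL with RAMP1 is the receptor for calcitonin gene-related peptide, while CALCRL with RAMP2 or RAMP3 binds adrenomedullin. Signaling runs mainly through the stimulatory G protein, cyclic AMP (cAMP) and protein kinase A. In endothelium, CALCRL and RAMP2 are the usual pair, and ADM is a known target of hypoxia signaling.

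The RAMP genes encode related proteins, so it was first examined whether a sequenced fragment could be given to the wrong gene. The last 120 coding bases, which encode the membrane span and the short tail, are shown for each gene on GRCh38 as read from the GENCODE 29 transcripts. Capitals mark the longest run that each stretch shares with the end of another RAMP gene.
RAMP1, chr2:237911661-237911780, plus strand: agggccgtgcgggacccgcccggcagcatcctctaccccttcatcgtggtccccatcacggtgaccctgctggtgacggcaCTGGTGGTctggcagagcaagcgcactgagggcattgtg
RAMP2, chr17:42762730-42762849, plus strand: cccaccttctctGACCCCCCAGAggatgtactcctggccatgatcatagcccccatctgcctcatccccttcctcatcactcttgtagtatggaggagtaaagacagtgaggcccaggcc
RAMP3, chr7:45183290-45183409, plus strand: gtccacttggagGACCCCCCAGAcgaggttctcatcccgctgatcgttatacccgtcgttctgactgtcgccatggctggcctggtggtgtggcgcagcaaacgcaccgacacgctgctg
Over the whole coding sequences (444 bases in RAMP1, 525 in RAMP2 and 444 in RAMP3), the longest run in common was 11 bases, between RAMP2 and RAMP3, and 9 bases in both other pairs. Aligned end to end, 49.4% to 54.7% of positions were identical. Their untranslated parts were not compared.

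The table holds FPKM values, which are fragment counts scaled to the length of the transcript and to the number of mapped fragments in the library, so that levels of different genes can be set side by side. The smallest values of single-exon genes step by what 1 fragment is worth, and these steps give a depth of about 24200000 and 23500000 fragments for the DMSO libraries and 19700000 and 26000000 for the SB libraries. The defining endothelial markers were high in all 4 libraries: all 13 listed markers were measured above the filter, and their summed level was 2242 to 2672 FPKM with DMSO and 2218 to 2593 FPKM with SB431542. The CD31 gene, PECAM1, stood at 197 and 163.2 FPKM with DMSO and at 182 and 153 FPKM with SB431542. Of 14909 genes tested with limma, 20 (0.134%) passed an adjusted p of 0.05, with 4 (0.0268%) that rose and 16 (0.107%) that fell with SB431542.

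RAMP2 was the most abundant gene of the system in every library. RAMP2 (ENSG00000131477.10, chromosome 17, 42758447 to 42763041, plus strand) encodes the subunit that turns CALCRL into an adrenomedullin receptor. Its level was 155 and 184 FPKM in the DMSO libraries and 79.1 and 85.7 FPKM in the SB libraries. Both SB libraries lay far below both DMSO libraries, and the gap between the groups was wider than the distance between libraries of a group. The mean was 169.7 ± 20.4 FPKM with DMSO and 82.4 ± 4.63 FPKM with SB431542 (SD, n = 2 each), a ratio of 0.486. On the log2(FPKM + 1) scale, used for all fold changes here, the difference was -1.03 (SE 0.17, 95% interval -1.48 to -0.58, limma adjusted p 0.167). RAMP2 thus did not pass the adjustment over all genes, while its unadjusted limma p was 0.00214. In size the difference ranked 513 of the 14909 genes tested, and 1.98% of genes had a lower fold change. Differences of -1 or below were seen in 2.16% of genes tested, and of at least 1 in either direction in 3.72%. It was -0.96 between the libraries numbered 1 and -1.09 between those numbered 2. In bulk RNA, fewer cells of a type and less RNA per cell cannot be told apart.

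RAMP2 overlaps a gene on the opposite strand, RAMP2-AS1 (ENSG00000197291.8, chromosome 17, 42753914 to 42761257), and no source says whether strand was used in counting. Their exons share 412 bases, which is 35.9% of all annotated RAMP2 exon bases. Of the main coding transcript of RAMP2, 64 of 780 bases are shared, and 0 coding bases are, since the antisense gene begins at 42761257 and the RAMP2 coding sequence at 42761262. RAMP2-AS1 stood at 8.41 and 9.90 FPKM with DMSO and at 4.28 and 4.19 FPKM with SB431542. Its libraries were again separated by group. The difference was -0.95 on the log2 scale (SE 0.17, adjusted p 0.195 by limma). The level of the antisense gene was 4.90% to 5.42% of that of RAMP2 in each library. Without strand, fragments from the shared bases cannot be told apart, so the values of RAMP2-AS1 are uncertain.

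CALCRL (ENSG00000064989.12, chromosome 2, 187343129 to 187448460, minus strand), the receptor itself, was the next most abundant gene. Its level was 25.8 and 49.9 FPKM with DMSO and 32.6 and 48.7 FPKM with SB431542. The libraries separated by their replicate number rather than by treatment, with both libraries numbered 2 above both numbered 1, and the groups overlapped. The means were 37.9 ± 17.1 and 40.7 ± 11.3 FPKM (SD, n = 2 each), and the difference was 0.15 on the log2 scale (SE 0.38, adjusted p 0.966 by limma). The 95% interval ran from -0.84 to 1.14 in this fit, which has no term for the replicate number and so counts that spread as error. Differences of either sign within the interval could not be told from 0 in this fit. The direction turned to -0.32 without DMSO replicate 1 and to -0.13 without SB replicate 2, but leaving out a library also unbalances the replicate numbers between the groups. The difference was 0.33 between the libraries numbered 1 and -0.036 between those numbered 2. The antisense gene AC007319.1 spans CALCRL but shares 0 exon bases with it, and stood at no more than 0.669 FPKM.

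ADM (ENSG00000148926.9, chromosome 11, 10304680 to 10307397, plus strand) encodes the ligand. Its level was 6.54 and 6.11 FPKM with DMSO and 12.4 and 9.28 FPKM with SB431542. Both SB libraries were above both DMSO libraries, opposite in direction to RAMP2. The mean was 6.32 ± 0.306 FPKM with DMSO and 10.9 ± 2.22 FPKM with SB431542 (SD, n = 2 each), a ratio of 1.72. The difference was 0.68 on the log2 scale (SE 0.20, 95% interval 0.16 to 1.21, adjusted p 0.376 by limma). Fold changes within the replicate numbers were 0.83 and 0.53. The interval, which is not adjusted for the number of genes, lay above 0, but the gene did not pass the adjustment.

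RAMP1 (ENSG00000132329.10, chromosome 2, 237858893 to 237912114, plus strand) encodes the subunit of the receptor for calcitonin gene-related peptide. Its level was 5.56 and 3.94 FPKM with DMSO and 8.08 and 7.38 FPKM with SB431542. Here too the SB libraries lay above the DMSO libraries without overlap. The mean was 4.75 ± 1.15 FPKM with DMSO and 7.73 ± 0.494 FPKM with SB431542 (SD, n = 2 each), a ratio of 1.63. The difference was 0.61 on the log2 scale (SE 0.21, 95% interval 0.065 to 1.16, adjusted p 0.452 by limma). It was 0.47 between the libraries numbered 1 and 0.76 between those numbered 2.

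RAMP3 (ENSG00000122679.8, chromosome 7, 45157791 to 45186302, plus strand), the other subunit that gives an adrenomedullin receptor, was listed at 0 FPKM in all 4 libraries. An exact 0 in such a table can be a failed estimate, although 0 of 10 housekeeping genes were at 0 in any library. At the depth given above, 3 fragments, the limit that a count of 0 allows, would be worth 0.111 to 0.147 FPKM on the longest coding transcript of RAMP3 and 0.447 to 0.591 FPKM on the shortest, for counting error only. RAMP3 was below the filter and was not tested.

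**Figure D1:**
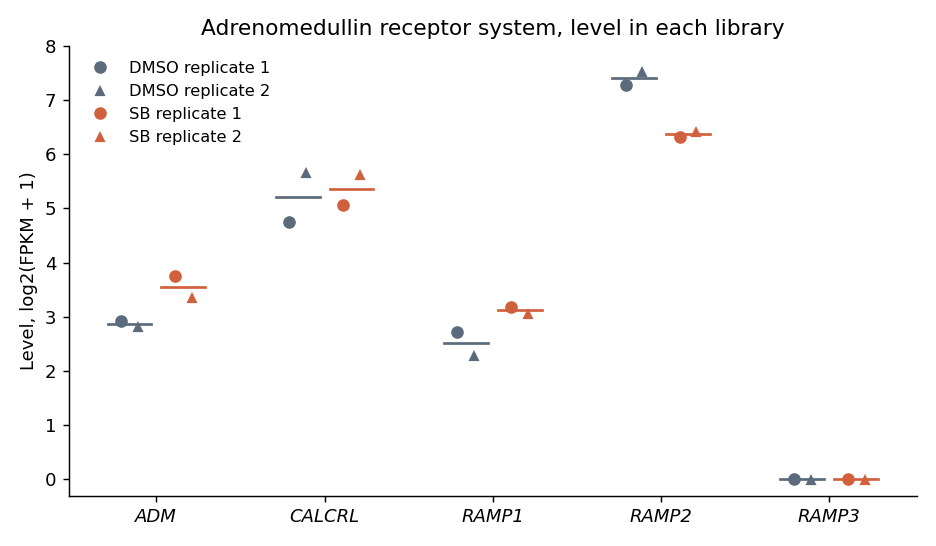
Level of each gene of the adrenomedullin receptor system as log2(FPKM + 1), with 1 point per library (circles, replicate 1, and triangles, replicate 2) and a bar at the mean of each group of 2. RAMP2 is highest and lower in both SB libraries, ADM and RAMP1 are low and higher in both SB libraries, CALCRL overlaps, and RAMP3 is listed at 0.

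Of the 4 genes that passed the filter, 0 passed the limma adjustment over all genes in the main fit, which has group as its only term. A fit with a block for the replicate number, in which 2 of the 4 and 10.5% of all genes tested passed, is described at the end. In the main fit 3 genes had an unadjusted p under 0.05, RAMP2 lower and ADM and RAMP1 higher, against 9.96% of all genes tested (4.8% higher and 5.16% lower). The groups did not overlap for the same 3 genes, 2 higher and 1 lower, while this held for 37.5% of all genes tested (21.5% higher and 16% lower). The median log2 fold change of the 4 genes was 0.38, beside 0.04 over all genes tested. With 2 libraries against 2, an exact two-sided permutation test cannot give a p below 0.333, so none was run. The order of the levels was RAMP2, CALCRL, ADM, RAMP1 and RAMP3 in each of the 4 libraries. ADM and RAMP1 were the closest neighbours in that order, with means of 6.32 and 4.75 FPKM with DMSO and of 10.9 and 7.73 FPKM with SB431542. Their means lay further apart than the larger SD of the pair in both groups.

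**Figure D2:**
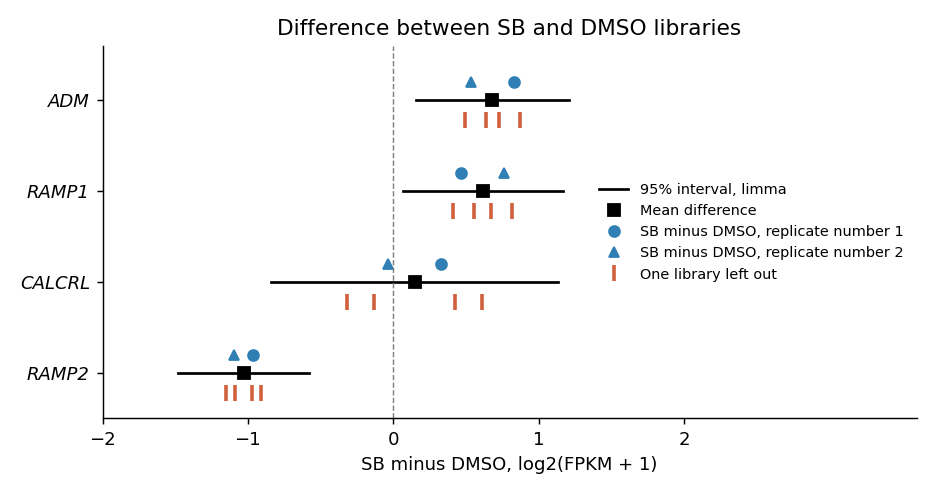
Difference between SB and DMSO libraries on the log2(FPKM + 1) scale for the 4 tested genes. Squares and lines are the limma estimate with its 95% interval (2 libraries per group, not adjusted for the number of genes), blue symbols the differences within a replicate number, and red ticks the values with 1 library left out. RAMP2 stays between -1.15 and -0.91 when a library is left out, while CALCRL lies on both sides of 0.

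Because the RAMP decides the ligand preference, the balance of RAMP transcripts was compared within each library. RAMP2 made up 96.5% and 97.9% of the summed RAMP FPKM in the DMSO libraries and 90.7% and 92.1% in the SB libraries, and RAMP1 made up the remainder, 3.46% and 2.09% with DMSO and 9.26% and 7.93% with SB431542. RAMP2 was therefore the main RAMP transcript in all 4 libraries. The share of RAMP1 was 2.78% ± 0.965 with DMSO and 8.60% ± 0.942 with SB431542 (SD, n = 2 each), a distance of several SDs that was not tested. RAMP2 transcripts exceeded RAMP1 transcripts 27.9-fold and 46.7-fold with DMSO and 9.80-fold and 11.6-fold with SB431542.

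The balance between RAMPs and receptor also differed. The summed RAMP level was 6.24 and 3.77 times that of CALCRL in the DMSO libraries and 2.67 and 1.91 times in the SB libraries. In every library the RAMP transcripts outnumbered those of CALCRL, and both SB libraries lay below both DMSO libraries. The mean ratio was 5.0 ± 1.75 with DMSO and 2.29 ± 0.537 with SB431542 (SD, n = 2 each). The difference of -2.71 became -1.47 without DMSO replicate 1, and no test was made. RAMP2 relative to the ligand was 23.7 and 30.2 times ADM with DMSO and 6.37 and 9.23 times with SB431542. Relative to PECAM1, RAMP2 stood at 0.788 and 1.13 with DMSO and at 0.435 and 0.561 with SB431542, with both SB libraries below both DMSO libraries. The ratio to each of the 13 endothelial markers was added after the values were seen. It was lower without overlap for 12 of them and higher for 1, ENG, at 2.42 and 3.85 with DMSO and 4.45 and 5.84 with SB431542. All 13 ratios hold the same RAMP2 values, which already differed without overlap, so this count is a description and not separate evidence.

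**Figure D3:**
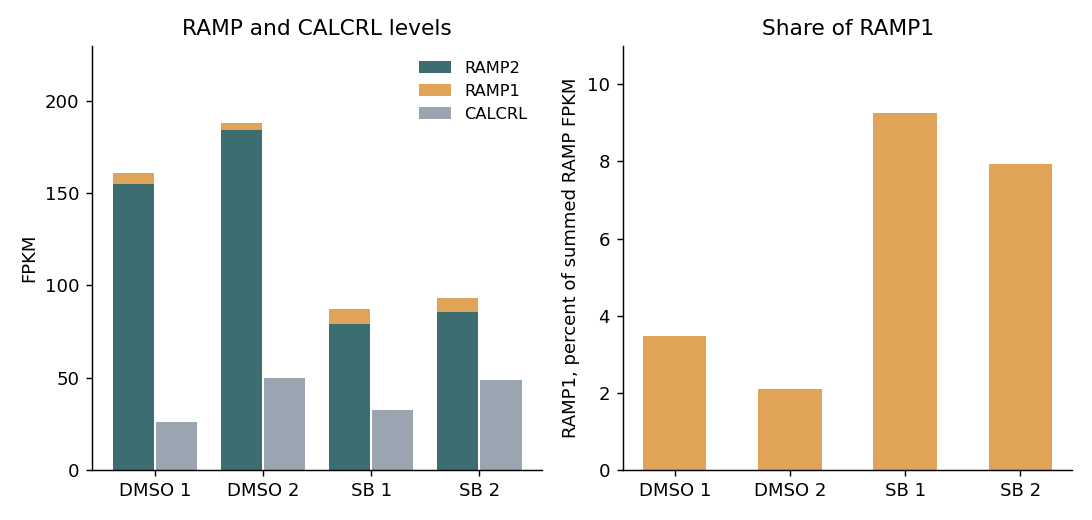
Left, FPKM of RAMP2 and RAMP1 (stacked) and of CALCRL in each library, on a linear axis from 0. Right, RAMP1 as a percentage of the summed RAMP FPKM, at 3.46% and 2.09% in the DMSO libraries and 9.26% and 7.93% in the SB libraries. Each bar is 1 library, with no error bar.

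Promoter sequences were available for 3 of the 5 genes, ADM, CALCRL and RAMP3, from RefSeq on GRCh38.p14, each with 250 bases before and 50 after the RefSeq start. Those of the ligand and the receptor are printed because ADM differed between the groups without overlap while CALCRL did not. Capitals mark the motifs searched on both strands, which were TATAAA (the TATA box), ACGTG and GCGTG (cores of the hypoxia response element), CAGAC (the SMAD box) and AGGAAG (an ETS core).
ADM, chr11:10304823-10305122, plus strand: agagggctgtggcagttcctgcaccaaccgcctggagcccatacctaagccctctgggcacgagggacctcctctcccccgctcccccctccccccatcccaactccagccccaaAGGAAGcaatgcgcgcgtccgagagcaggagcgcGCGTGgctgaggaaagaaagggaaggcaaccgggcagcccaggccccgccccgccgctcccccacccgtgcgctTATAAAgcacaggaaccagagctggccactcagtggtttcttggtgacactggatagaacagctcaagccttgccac
CALCRL, chr2:187448203-187448502, minus strand: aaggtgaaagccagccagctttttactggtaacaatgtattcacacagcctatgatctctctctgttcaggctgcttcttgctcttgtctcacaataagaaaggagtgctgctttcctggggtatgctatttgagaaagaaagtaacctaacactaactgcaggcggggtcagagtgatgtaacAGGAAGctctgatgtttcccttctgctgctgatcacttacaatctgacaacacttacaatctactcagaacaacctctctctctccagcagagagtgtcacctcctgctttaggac
The ADM window held AGGAAG at base 116, GCGTG at base 150 and TATAAA at base 224, each 1 time and on the strand of the gene, counted from 1 at its 5′ end. The CALCRL window held AGGAAG at base 185. Neither held ACGTG or CAGAC. The share of all 35116 promoters in the table with the motif on either strand was 33.6% for AGGAAG, 36.5% for GCGTG, 11.5% for TATAAA, 21.4% for ACGTG and 45.3% for CAGAC. GC content was 65.0% in the ADM window and 45.3% in the CALCRL window, which held 1 CpG against 16 in ADM. The RAMP3 window, not printed, had a GC content of 75.0% with 24 CpGs and held 2 copies of GCGTG and 1 of CAGAC. A match describes letters only, and binding was not measured.

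The other ligands and receptors of the calcitonin family were compared next, to see what else of the family these cells express. Of 9 listed genes, 4 passed the filter and 5 were below it, namely ADM2, CALCA, CALCB, IAPP and CALCR. ADM2, a second ligand of the same receptor, stood at 0.773 and 0.480 FPKM with DMSO and at 0.356 and 0.192 FPKM with SB431542. CALCA and CALCB, which encode calcitonin gene-related peptides, did not exceed 0.178 FPKM in any library, and CALCR, the calcitonin receptor, did not exceed 0.043 FPKM. ADM was thus the ligand transcript with the highest level among these genes, and CALCRL the main receptor transcript that pairs with RAMPs in this family.

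ACKR3, a scavenging receptor that can take up adrenomedullin, stood at 48.9 and 52.3 FPKM with DMSO and at 72.7 and 65.8 FPKM with SB431542 (log2 fold change 0.44, limma adjusted p 0.477). GPR182, an endothelial receptor once proposed to bind adrenomedullin, stood at 0.424 and 0.175 FPKM with DMSO and at 2.10 and 1.24 FPKM with SB431542 (log2 fold change 1.03, limma adjusted p 0.330). For both genes the SB libraries lay above the DMSO libraries. ADM5 stood at 2.23 and 1.39 FPKM with DMSO and at 2.80 and 1.80 FPKM with SB431542, and the groups overlapped. Of the 4 tested genes 0 passed the limma adjustment, and these 2 had an unadjusted limma p under 0.05: ACKR3 and GPR182. Over all genes tested, 4.8% were higher at that p and 21.5% were higher without overlap. GPR182 passed the filter only through its SB mean (1.67 FPKM, beside 0.299 FPKM with DMSO), which favours a higher value. The median log2 fold change of the 4 was 0.34. Without the filter, over all 9 genes, the median was 0.0078.

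RAMPs can also pair with other class B receptors, a family of receptors for peptide hormones. Of 10 such genes, 4 passed the filter. PTH1R, the receptor for parathyroid hormone, stood at 3.00 and 1.43 FPKM with DMSO and at 0.985 and 0.301 FPKM with SB431542 (log2 fold change -0.96, limma adjusted p 0.499). ADCYAP1R1, a receptor for the neuropeptide PACAP, stood at 3.68 and 4.34 FPKM against 2.47 and 2.14 FPKM (-0.60, limma adjusted p 0.417), and GIPR, the receptor for an incretin hormone, at 19.2 and 17.6 FPKM against 13.6 and 13.1 FPKM (-0.43, limma adjusted p 0.484). These 3 genes were lower in both SB libraries, with an unadjusted limma p under 0.05. Over all genes tested, 5.16% were lower at that p and 16% were lower without overlap. PTH1R passed the filter only through its DMSO mean (2.22 FPKM, beside 0.643 FPKM with SB431542), which favours a lower value. Of the 4 genes tested, 0 passed the adjustment. The median was -0.51, and -0.20 without the filter. CALCRL exceeded each of them in level in every library.

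The enzymes that process or clear the peptide all passed the filter (9 of 9 genes). PAM, which amidates the end of adrenomedullin and so makes it active, stood at 105 and 112 FPKM with DMSO and at 101 and 106 FPKM with SB431542 (log2 fold change -0.073, limma adjusted p 0.959), and the groups overlapped. PAM is given with its values because this step is required for activity, a choice made after the values were seen. CPE, a carboxypeptidase of peptide hormone processing, stood at 10.5 and 14.4 FPKM with DMSO and at 41.4 and 34.4 FPKM with SB431542 (log2 fold change 1.54, limma adjusted p 0.125). DPP4, a peptidase that can trim peptides at their start, stood at 2.23 and 3.16 FPKM against 0.477 and 0.402 FPKM (-1.35, limma adjusted p 0.173). PCSK6, a proprotein convertase, stood at 6.49 and 3.47 FPKM against 10.1 and 9.12 FPKM (0.87, limma adjusted p 0.436). In the list 0 genes passed the limma adjustment, and 3 had an unadjusted limma p under 0.05 (2 higher and 1 lower). The shares of all genes tested at that p were 4.8% higher and 5.16% lower. Without overlap, 2 of the list were higher and 4 lower, beside 21.5% and 16% of all genes tested. DPP4 passed the filter only through its DMSO mean (2.70 FPKM, beside 0.439 FPKM with SB431542), which favours a lower value. The median of the list was -0.27.

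Downstream of the receptor, 22 of 26 listed genes of cAMP signaling passed the filter, with a median log2 fold change of -0.099, which became 0.053 without SB replicate 2. None (0 genes) passed the limma adjustment, and 4 had an unadjusted limma p under 0.05 (2 higher and 2 lower). The shares of all genes tested at that p were 4.8% higher and 5.16% lower. Without overlap, 4 of the list were higher and 5 lower, beside 21.5% and 16% of all genes tested. PDE3A, which breaks down cAMP, stood at 1.22 and 1.87 FPKM with DMSO and at 3.56 and 4.62 FPKM with SB431542 (log2 fold change 1.01, limma adjusted p 0.274). PRKAR2B, a regulatory subunit of protein kinase A, stood at 24.2 and 30.3 FPKM against 46.3 and 51.9 FPKM (0.83, limma adjusted p 0.265). PDE2A, another phosphodiesterase, stood at 7.77 and 5.03 FPKM against 3.6 and 3.13 FPKM (-0.74, limma adjusted p 0.436). Among the 11 genes of receptor desensitization and trafficking, all tested, the median was 0.13, with 0 past the adjustment, 1 with an unadjusted p under 0.05, and 2 higher and 1 lower without overlap. ARRB2, a β-arrestin that ends receptor signaling, stood at 88.8 and 59.2 FPKM with DMSO and at 141 and 94.0 FPKM with SB431542 (log2 fold change 0.66, limma adjusted p 0.599). RAB7A, which directs receptors to lysosomes, had a log2 fold change of 0.45 and GRK5, a receptor kinase, of -0.37, with limma adjusted p of 0.493 and 0.610.

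ADM is a known hypoxia target, so it was compared with 9 other tested hypoxia-induced genes. These did not share 1 direction. VEGFA, the endothelial growth factor, stood at 40.7 and 27.8 FPKM with DMSO and at 23.5 and 15.1 FPKM with SB431542 (log2 fold change -0.80, limma adjusted p 0.488). NDRG1 stood at 10.1 and 9.29 FPKM against 7.05 and 4.81 FPKM (-0.65, limma adjusted p 0.451). Both were lower in the SB libraries, in which ADM was higher. Of the 10 tested genes, ADM included, 3 were higher and 4 lower without overlap, beside 21.5% and 16% of all genes tested. An unadjusted limma p under 0.05 was seen in 4 of the 10, beside 9.96% of all genes tested, and 0 passed the adjustment. The median was 0.0036, and it ranged from -0.17 to 0.14 when 1 library was left out.

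Other peptide systems of endothelium were set beside the adrenomedullin system. Of 14 listed genes 7 passed the filter. EDN1, the precursor of the vessel-constricting peptide endothelin, stood at 3.28 and 4.31 FPKM with DMSO and at 0.233 and 0.154 FPKM with SB431542 (log2 fold change -2, limma adjusted p 0.0845). APELA, a ligand of the apelin receptor, stood at 2.82 and 4.8 FPKM against 1.16 and 0.702 FPKM (-1.30, limma adjusted p 0.259), and ACE, the angiotensin-converting enzyme, at 26.9 and 20 FPKM against 13 and 10.3 FPKM (-0.95, limma adjusted p 0.278). All 3 were lower in both SB libraries. In the list 0 genes passed the limma adjustment, and 4 had an unadjusted limma p under 0.05 (1 higher and 3 lower). At that p, 4.8% of all genes tested were higher and 5.16% lower. Without overlap, 2 of the list were higher and 4 lower, beside 21.5% and 16% of all genes tested. Of these 4 lower genes only ACE had an SB mean of at least 1 FPKM (11.6 FPKM). The others passed the filter only through their DMSO mean, which favours a lower value. The median of -0.52 became 0.26 under a filter of at least 5 FPKM in 2 libraries, which left 4 genes, -0.17 without a filter and -0.99 with a pseudocount of 0.1.

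**Figure D4:**
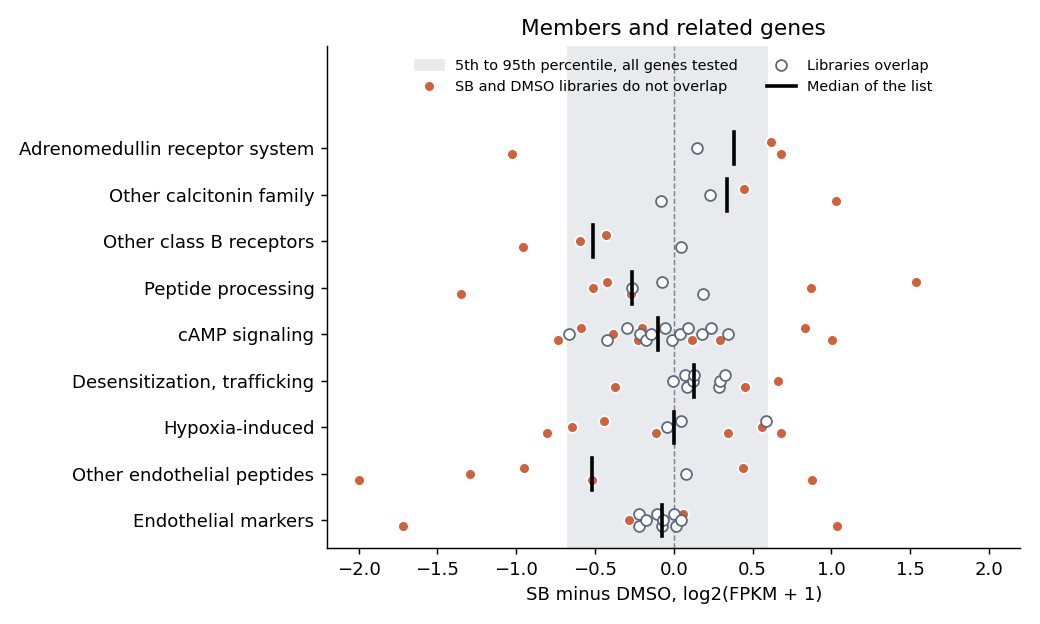
Log2 fold change of each tested gene (points) in the adrenomedullin receptor system and in the lists of related genes, with filled points where the 2 SB and the 2 DMSO libraries do not overlap and a bar at the median of each list. The shaded band runs from -0.67 to 0.59, the 5th to 95th percentile of all genes tested, and RAMP2, ADM and RAMP1 lie outside it.

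Markers of other cell types differed between the groups too, and their part in the values of the receptor system was not tested. The summed level of 8 hematopoietic markers was 319.6 to 374 FPKM with DMSO and 548 to 656 FPKM with SB431542. Of these markers, 7 of 7 tested were higher without overlap, as ADM and RAMP1 were. For comparison, 21.5% of all genes tested were higher and 16% lower without overlap. The 7 mesenchymal and smooth muscle markers were all lower without overlap. The sum of 7 mesenchymal and smooth muscle markers was 376 to 411 FPKM with DMSO and 203 to 206 FPKM with SB431542, and that of 6 endoderm and liver markers was 188 to 209 FPKM against 29.8 to 62.2 FPKM, both in the direction of RAMP2. Most of the endoderm and liver sum with SB431542 was SOX17, at 53.3 and 17.5 FPKM with DMSO and 49.3 and 17.3 FPKM with SB431542. The groups overlapped for SOX17, while 4 of the 5 tested genes of that list were lower without overlap. In the same list 3 genes fell, AFP, APOA1 and TTR, with limma adjusted p of 0.0232, 0.0201 and 0.0353. The sums were 1524 to 1859 FPKM against 1215 to 1499 FPKM for 6 erythroid markers, of which 4 were lower and 0 higher without overlap. The sum of 4 lymphatic markers, 58.1 to 153.7 FPKM against 41.6 to 94.0 FPKM, was nearly all FLT4, whose groups overlapped, and the median log2 fold change of the list was 0.02. LYVE1, a hyaluronan receptor of lymphatic endothelium, stood at 0.524 and 0.663 FPKM with DMSO and at 5.19 and 3.03 FPKM with SB431542 (log2 fold change 1.65, limma adjusted p 0.169). The sum of 4 pluripotency markers, 43.1 to 51.5 FPKM against 66.5 to 77.8 FPKM, was nearly all LIN28A, an RNA-binding protein gene at 42.6 and 51 FPKM against 65.2 and 76 FPKM, while POU5F1 stood at no more than 1.6 FPKM, SOX2 at no more than 0.121 FPKM and NANOG at no more than 0.026 FPKM in any library. Among the housekeeping genes the median difference was 0.20 on the log2 scale, with 4 of 10 higher and 0 lower without overlap. The largest difference among them was that of ACTB, at 1439 and 1433 FPKM with DMSO and 2184 and 2179 FPKM with SB431542 (0.60, limma adjusted p 0.270), a size close to those of RAMP1 and ADM. In each of these lists 0 markers were at 0 in all 4 libraries. Among the 13 endothelial markers the median log2 fold change was -0.074, with 2 higher and 2 lower without overlap. The largest differences were those of ENG (-1.72, limma adjusted p 0.0986) and CDH5 (-0.28, limma adjusted p 0.710), both lower, and of CLDN5 (1.04, limma adjusted p 0.318), which was higher.

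For each tested gene of the system, the 3 genes with the closest pattern over the 4 libraries were sought among those with a mean of at least 5 FPKM, by the Euclidean distance between log2(FPKM + 1) values centred on their mean. The measure rests on 4 points and is a description only. Nearest to RAMP2 were ELOVL6 (distance 0.078), HAS2 (0.088) and SLIT2 (0.098), and ELOVL6 stood at 43.4 and 47.8 FPKM with DMSO and at 20.5 and 22.4 FPKM with SB431542. Nearest to ADM were HIPK2 (0.12), LRP8 (0.125) and RUNX1 (0.13). RUNX1, the transcription factor of blood cell emergence, stood at 35.3 and 33.6 FPKM with DMSO and at 69.8 and 53.6 FPKM with SB431542. Nearest to RAMP1 were AC012146.1 (0.058), MYCN (0.071) and CLEC14A (0.075). Nearest to CALCRL were CNIH1 (0.031), BORCS7 (0.090) and MOB1B (0.105), each with both libraries numbered 2 above both numbered 1.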

How the data were processed

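RNA-seq libraries of H1-derived cells at day 8 (2 DMSO and 2 SB, grouped by sample title) were analysed from the FPKM values deposited by the authors in 58365 rows. The study had its RNA-seq carried out commercially. The submitters' processing notes name BWA, Bowtie, RSEM and hg19 without roles or versions, while 95.5% of the identifiers in the table match GENCODE 29 and 99.8% of the matched rows lie at its GRCh38 positions, so GRCh38 coordinates counted from 1 are given. No scaling between libraries was stated. Values were transformed to log2(FPKM + 1), a scale that understates changes of low genes. Genes with a mean of at least 1 FPKM in at least 1 group (14909) entered a limma 3.58.1 fit under R 4.3.3 (empirical Bayes with trend, group as the only term, two-sided, Benjamini-Hochberg adjustment over all genes, threshold 0.05). The procedure was tested on simulated data. The genes and lists were chosen with earlier results of these data known.

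Depth was fitted to the lowest FPKM values of single-exon, single-transcript genes of 1000 to 8000 bases. Of the genes at 1 to 5 fragments, 95.7% to 97.3% lay within 0.1 of a whole number. If every fragment came from the shortest or the longest coding transcript, the values rest on 409 to 2476 fragments for RAMP2, 197 to 6252 for CALCRL, 42.8 to 392 for ADM and 33.7 to 119.9 for RAMP1. Genes are named by a rule: the 5 genes of the system, up to 3 genes per list with the largest fold change and any past the adjustment, rows that overlap a gene of the system, and the 3 nearest patterns. PAM falls outside this rule. Other settings tried were a block for the replicate number, other filters, a pseudocount of 0.1, upper-quartile scaling, quantile normalization, the sum of all rows of a symbol and the removal of each library.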

Additional observations from a re-analysis of the deposited data

How the results depend on the processing

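RAMP2 stayed lower and ADM and RAMP1 stayed higher under each of 9 alternatives other than the block and the sum of rows. The sum left every value as it was because each symbol has 1 row. The other filters also left these fold changes as they were. Because the groups do not overlap for these genes, another pseudocount or a library left out could not change the direction. Only upper-quartile scaling and quantile normalization could have changed it. Fold changes ranged from -1.15 to -0.91 for RAMP2 (limma adjusted p 0.161 to 0.668), from 0.49 to 0.87 for ADM (0.357 to 0.974) and from 0.41 to 0.82 for RAMP1 (0.443 to 0.9996). CALCRL ranged from -0.32 to 0.61 and reversed to -0.32 without DMSO replicate 1 and to -0.13 without SB replicate 2 (adjusted p 0.642 to 0.9996 over these alternatives). The differences of RAMP shares and of the RAMP to CALCRL ratio kept their direction within each replicate number and with any library left out. This could not be otherwise, since the groups do not overlap for these measures. The shares and the ratio also hold the same RAMP1 and RAMP2 values, so they are not separate evidence. The number of genes called, 20, became 0 without the filter (2739 with an unadjusted limma p under 0.05, beside 1485 with the filter), 31 with quantile normalization, and 0 to 14 with 1 library left out (0 without DMSO replicate 1, where 1168 had an unadjusted limma p under 0.05, 10 without SB replicate 1 and 9 without SB replicate 2).

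Labels give both groups the replicate numbers 1 and 2 without saying what a number marks. The difference between replicates 1 and 2 correlated between the groups (Pearson's r 0.53 across genes). With the replicate block, 1564 genes (10.5%) were called, and 2 of the 4 tested genes of the system passed, RAMP2 (-1.03, limma adjusted p 0.00594) and ADM (0.68, limma adjusted p 0.0382), as did 20 of 66 tested genes of the related lists. RAMP1 (0.61, limma adjusted p 0.0525) and CALCRL (0.15, limma adjusted p 0.424) did not. The SE of CALCRL was 0.11 with the block and 0.38 without it. With 2 libraries per group, the spread of low genes such as ADM and RAMP1 is poorly known.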
